A study of Mus musculus with 12 samples.

Results

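The miRNAs of the imprinted Dlk1-Dio3 region were examined in blood of mice without and with Tff3. The array table lists 710 mouse miRNA IDs. An ID was taken as a member when its name, with or without an arm ending (3p or 5p), equalled one of 32 listed miRNAs of the region, and IDs with a star, which mark passenger strands, were left out. This gave 39 of the 710 IDs, from 32 hairpins, and every listed miRNA was found. The rule uses names only, though the list of names was drawn up with earlier results of these data known.

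Blood of 6 Tff3 knockouts (tff3 KO) and 6 wild types was profiled, each with 3 males and 3 females, one sample per mouse. Its product is a trefoil peptide that goblet cells of the intestine release together with mucins. The labels give no strain, age, diet or treatment, and the design text speaks of a knock-down where the sample labels speak of a knockout. Tff3 itself is not on a miRNA array, so the genotypes could not be checked.

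The Dlk1-Dio3 region lies on distal mouse chromosome 12. Its miRNAs are cut from long noncoding transcripts (Meg3, an antisense transcript of Rtl1, Rian and Mirg) that are made from the maternally inherited chromosome only, while Dlk1, Rtl1 and Dio3 are expressed from the paternal one. The miRNAs are known for high expression in embryo, placenta and brain and for low expression in most adult tissues. In neurons several of them, such as miR-134, which represses Limk1, act in the growth of dendrites. The miRNAs opposite Rtl1 are fully complementary to its mRNA and direct its cleavage.

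Along the chromosome the member hairpins span 153.3 kb and fall into 3 groups (RefSeq, GRCm38.p6). The first holds 4 hairpins, miR-431, miR-433, miR-127 and miR-434, in 4.2 kb within the annotated bounds of Rtl1. After 23.7 kb follows miR-370 within Rian. After a further 90.7 kb come 27 hairpins from miR-379 to miR-410 in 34.7 kb, of which 6 lie within the annotated bounds of Mirg and the other 21 outside the bounds of all 4 transcripts examined.

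Of the 39 IDs, 14 name an arm and matched a RefSeq mature sequence of that name. The other 25 name none, and the table does not settle which arm their probe reads, so sequences of both arms were considered for them. For 12 of these a separate star ID stands for the passenger strand. Their own ID then reads the opposite arm, which its name does not give. For miR-485, miR-376c, miR-487b and miR-539 only 1 mature sequence was found in RefSeq. The first set shown holds the arms on which the results turn. All lie on the plus strand, and capitals mark the seed, bases 2 to 8, which pairs with target mRNAs.
miR-666-5p, chr12:109717103-109717124: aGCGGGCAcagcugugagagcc
miR-666-3p, chr12:109717140-109717161: gGCUGCAGcgugaucgccugcu
miR-323-5p, chr12:109712523-109712544: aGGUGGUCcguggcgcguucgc
miR-323-3p, chr12:109712558-109712578: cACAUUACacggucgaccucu
miR-654-5p, chr12:109723235-109723256: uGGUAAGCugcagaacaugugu
miR-654-3p, chr12:109723270-109723291: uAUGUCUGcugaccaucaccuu
miR-434-5p, chr12:109594528-109594549: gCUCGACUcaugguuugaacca
miR-434-3p, chr12:109594565-109594586: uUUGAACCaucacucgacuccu
miR-539-5p, chr12:109728136-109728157: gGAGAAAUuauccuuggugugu

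The members are related in sequence, and 3 pairs of arms share a seed. They are shown because probes for such relatives can bind each other's target. For miR-411, miR-376b and miR-376c, the arm shown may be the one that the star ID reads and not the member.
miR-379-3p, chr12:109709102-109709123: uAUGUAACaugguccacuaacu
miR-411-3p, chr12:109710225-109710246: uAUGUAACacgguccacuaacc
miR-376b-5p, chr12:109723471-109723492: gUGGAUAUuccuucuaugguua
miR-376c-5p, chr12:109722733-109722754: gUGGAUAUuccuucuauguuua
miR-410-5p, chr12:109743729-109743749: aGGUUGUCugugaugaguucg
miR-494-5p, chr12:109715334-109715355: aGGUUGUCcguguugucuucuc
Counted from 1 at the 5′ end, miR-376c-5p differs from miR-376b-5p by U19G and miR-379-3p from miR-411-3p by U10C and U22C. A further pair of arms, miR-300-3p and miR-381-3p, differs by G4A, U21G and C22U. The first of these lies in the seed, and the identity is 86.4%.
miR-300-3p, chr12:109724363-109724384: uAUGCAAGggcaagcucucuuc
miR-381-3p, chr12:109726870-109726891: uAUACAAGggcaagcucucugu
Also alike were miR-376a-3p and miR-376b-3p, with 3 differences (85.7% identity), and miR-495-3p and miR-543-3p, with 4 (81.8%). The arms miR-410-5p and miR-494-5p share the seed but differ in length and were not compared base by base. Values of such near relatives are uncertain as values of one miRNA, since cross-hybridisation was not tested.

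Cluster miRNAs gave weak signals in blood of both genotypes. The deposited intensities of the 39 members lay between -44 and 456 on arrays whose summed intensity was 472963 to 814468 in knockouts and 391740 to 1111471 in wild types. Together the members made up 0.308% to 0.769% of the summed intensity in knockouts and 0.243% to 1.01% in wild types. Of their 468 values, 27 (5.77%) were at or below 0, which means no signal above the subtracted background, against 4.27% of all values of the table, and 12 of the 39 members were at or below 0 on at least 1 array. The precision of all values is limited by the number of arrays.

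Ranked by signal within each array (0% dimmest, 100% brightest), the members had a median mean rank of 35.5%, against 47.5% for all 710 IDs. The ranks ran from 4.5% for miR-541 to 77.3% for miR-666-3p. A rank of probe signals is not an order of abundance, because probes differ in affinity. Above the middle on average were 9 members, and 12 lay in the lowest 25%. On all 12 arrays 16 members were below the array's median and 2 above it, both of them arms of miR-666.

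On the same arrays, miRNAs of red cells ranked high. The 6 erythroid miRNAs examined ranked between 90.3% and 99.8%, among them miR-486 and miR-16, both abundant in red cells. Other lists were mixed. The 4 myeloid miRNAs ranked between 20.7% and 92.8%, and the 5 lymphocyte ones between 19.9% and 94.6%. The 2 liver miRNAs ranked between 66.1% and 92.2%, and the 7 muscle ones between 14.4% and 81.7%. By themselves the ranks do not show the origin of the RNA. Among 7 miRNAs typical of brain, miR-9, a neural miRNA, ranked at 5.8% and miR-124, the neuronal miRNA, at 62.6%, while miR-128, which lymphocytes hold too, ranked at 88.2%. In bulk blood, fewer cells that express a miRNA and less of it per cell cannot be told apart.

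Before any scaling, the members' median intensity was 80, 140, 48, 60, 64 and 64 in knockouts 1 to 6, against 52, 52, 88, 48, 60 and 104 in the wild-type columns 7 to 12. The median of all miRNAs on the same arrays was 116, 188, 72, 92, 84 and 86 in knockouts, against 88, 100, 112, 76, 92 and 136 in wild types. Knockout 2 was highest in both, and the members lay below the median of all miRNAs on every array. Values were therefore compared after quantile normalization, as levels defined as log2(normalized intensity + 50). On this scale changes of dim miRNAs are understated.

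**Figure D1:**
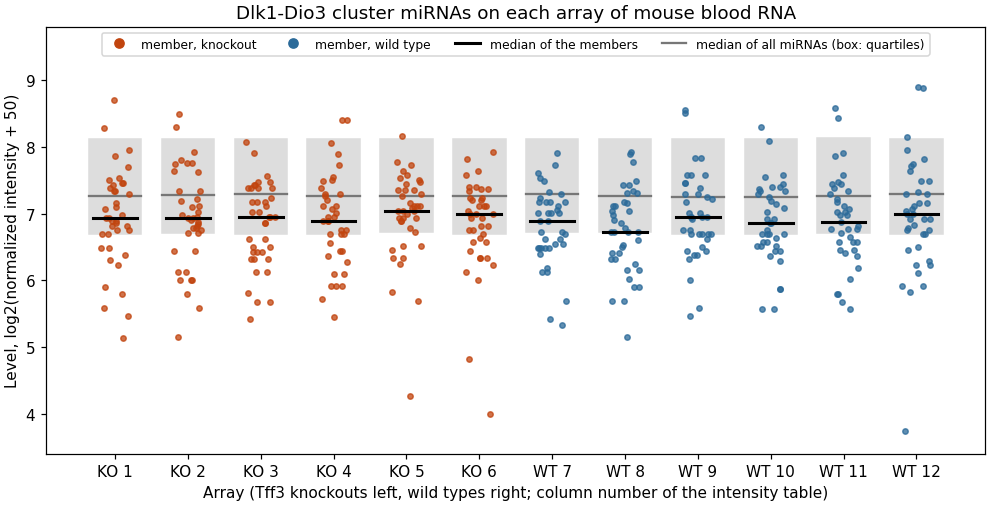
Levels, log2(normalized intensity + 50), of the 39 cluster members (points) on the 6 knockout and 6 wild-type arrays, with the members' median (black line) and the median and quartiles of all 710 miRNAs (grey). The members' median lies between 6.73 and 7.04, below that of all miRNAs, which lies between 7.25 and 7.29, on each of the 12 arrays.

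The mean level over the members was 6.93, 6.92, 6.84, 6.90, 6.96 and 6.82 in knockouts 1 to 6 and 6.79, 6.74, 6.97, 6.86, 6.90 and 6.96 in wild-type columns 7 to 12. The knockouts lay within the range of the wild types. The 2 lowest values belonged to wild-type columns 7 and 8.

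The 3 positional groups each held bright and dim IDs or, for Rian, 1 ID near the middle. In the group opposite Rtl1, mean ranks ran from 17.8% for miR-434-3p to 65.3% for miR-431, with miR-433 at 53.4%, miR-127 at 41.1% and miR-434-5p at 31.1%. In Rian, mmu-miR-370 ranked at 49.8%. The 33 IDs from miR-379 to miR-410 had a median rank of 32.3% and the full range of 4.5% to 77.3%. Its brightest IDs were the arms of miR-666 and, after them, miR-300, miR-654-5p, miR-377 and miR-381.

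**Figure D2:**
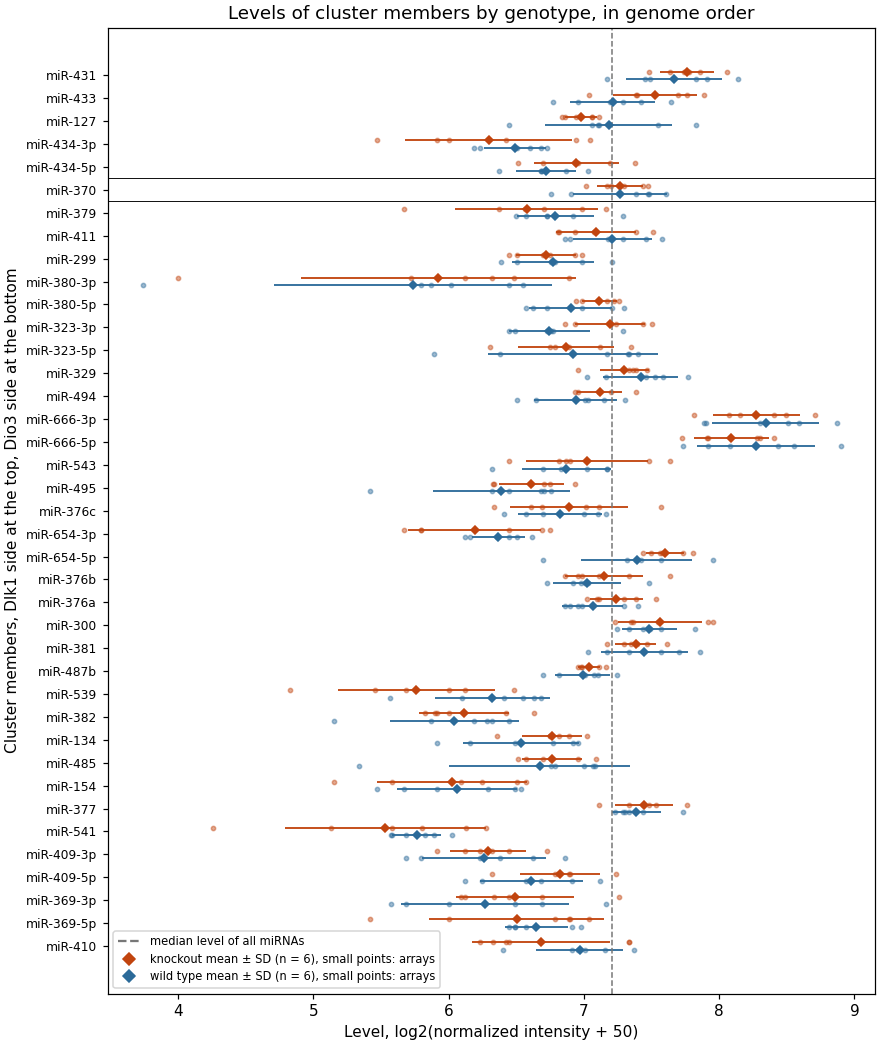
Levels of the 39 members in genome order, with knockouts above wild types in each row (diamond and bar: mean ± SD, n = 6; small points: arrays); thin lines part the group opposite Rtl1, miR-370 and the group from miR-379 to miR-410. The arms of miR-666 stand to the right of all other means, and the points of both genotypes overlap in every row.

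The brightest member, miR-666-3p, had intensities of 360, 456, 156, 260, 220 and 152 in knockouts, against 164, 232, 304, 200, 252 and 376 in wild types. The other arm, mmu-miR-666-5p, had 272, 412, 136, 260, 140 and 168 in knockouts, against 136, 240, 312, 164, 228 and 380 in wild types. Both arms were high in knockouts 1 and 2 and in wild-type columns 9 and 12, so each genotype held high and low arrays. After normalization miR-666-3p was at 8.28 ± 0.32 in knockouts, against 8.34 ± 0.39 in wild types. The level of miR-666-5p was 8.09 ± 0.27 in knockouts, against 8.27 ± 0.44 in wild types (all as mean ± SD of 6 arrays).

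The other members with the highest mean intensities also overlapped between genotypes. miR-431, which in mouse muscle promotes regeneration, had intensities of 88 to 280 with a median of 170 in knockouts and 76 to 260 with a median of 152 in wild types. miR-300 ran from 68 to 320 with a median of 110 in knockouts and from 76 to 216 with a median of 112 in wild types. Its near relative miR-381 ran from 64 to 252 with a median of 98 in knockouts and from 76 to 196 with a median of 118 in wild types. The highest knockout value of each of these 3 miRNAs came from knockout 2, the array with the highest median of all miRNAs. miR-654-5p ran from 96 to 292 (median 132) in knockouts and from 40 to 228 (median 116) in wild types, and miR-377 from 72 to 284 (median 104) in knockouts and from 84 to 204 (median 110) in wild types.

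For 7 hairpins both arms were members, and miR-666 was the hairpin of these 7 whose arms correlated past the threshold. The 12 pairs of a member and its star ID were not correlated. Over the 12 arrays the levels of miR-666-5p and miR-666-3p correlated with Pearson's r = 0.87 (permutation p = 0.00024, adjusted over the 7 hairpins 0.0017) and Spearman's rho = 0.78 (permutation p = 0.004, adjusted 0.028). The r was 0.87 without the 2 arrays farthest from the median of the 5p arm, 0.74 within knockouts and 0.96 within wild types. For the other 6 hairpins r lay between -0.54 for miR-434 and 0.47 for miR-369, and no permutation p passed after adjustment (smallest adjusted p 0.24 for r and 0.089 for rho). The arms of miR-369 had a rho of 0.65 (permutation p = 0.026 before adjustment), and their r was 0.77 without the 2 arrays farthest from the median, 0.57 within knockouts and 0.78 within wild types. The arms of miR-323 had r = 0.90 within knockouts and 0.04 within wild types. miR-666 is also the brightest pair, and whether dim pairs could show a correlation at this noise was not tested. Nor was it tested whether unrelated bright probes correlate as strongly over these arrays, so the correlation is not shown to be particular to the hairpin.

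As a set, the members showed little common movement between arrays. Over the 741 pairs of members the median correlation of levels, taken as deviations from the genotype means, was 0.04, with quartiles of -0.21 and 0.29. Over all pairs of the 710 miRNAs it was -0.002, with quartiles of -0.26 and 0.26. This is a description over 12 arrays that share their normalization.

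Brighter members tended to be richer in G and C. Over the 39 members the mean level and the share of G and C in the mature sequence (mean of both arms where the ID names none) correlated at r = 0.46 and rho = 0.34, as a description across miRNAs. Without the arms of miR-666, which hold 68.2% G and C each, r was 0.26 and rho 0.23. Over the 14 members whose ID names the arm r was 0.65 and rho 0.53, but these include both arms of miR-666. Over all 509 matched miRNAs that were not members r was 0.13 and rho 0.21. Over the 268 of these with a level below the table's median, r was 0.29 and rho 0.33. Both sets hold other miRNAs of the region and star IDs of members. Base composition can change both probe affinity and abundance, and their parts were not tested.

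The main comparison asked whether cluster miRNAs differ in blood between Tff3 knockouts and wild types. No member passed the threshold: limma called 0 of 39 members and 0 of all 710 miRNAs (0%) at an adjusted p of 0.05. The smallest adjusted p among members was 0.415 (limma, Benjamini-Hochberg over all miRNAs). An unadjusted p under 0.05 was found for 2 of 39 members (5.13%), miR-323-3p and miR-539, against 9.01% of all miRNAs, and by the exact Wilcoxon rank-sum test for 1 of 39. Groups did not overlap for 0 of 39 members, against 0.704% of all miRNAs.

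The log2 difference, knockout minus wild type, was above 0 for 22 and below 0 for 17 of the 39 members, a share above 0 of 56.4% against 49.4% of all miRNAs. Its median was 0.05 over the members and -0.001 over all miRNAs. SE below stands for standard error. The 95% confidence interval of a member reached a median of 0.41 and at most 1.01 to either side on the log2 scale. These intervals are not adjusted for the number of miRNAs tested, so differences larger than their reach can go uncalled too. Of 5 lymphocyte miRNAs examined on the same arrays, 3 had an unadjusted limma p under 0.05 and 0 was called. These 3 were lower in knockouts, with log2 differences of -1.08 for miR-181a, -0.89 for miR-181b and -0.60 for miR-342-3p. By contrast, miR-150 and miR-155 were higher, with 0.16 and 0.17. Over the 5 miRNAs the mean level was 7.88 to 8.91 in knockouts, against 8.62 to 9.32 in wild types. An unadjusted limma p under 0.05 was also found for 1 of 6 erythroid miRNAs, miR-144 (log2 difference 1.02). The same held for 1 of 7 muscle miRNAs, miR-208b (-0.51). It was found for 0 in the lists of brain, myeloid, platelet, liver and stromal miRNAs. The part of lymphocyte content in the members' values was not tested.

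The member with the smallest p was mmu-miR-323-3p (IDs carry the prefix mmu, for mouse, which is left out elsewhere). Its intensities were 72, 140, 84, 84, 112 and 84 in knockouts, against 24, 52, 68, 24, 52 and 136 in wild types. All 6 knockouts lay above the wild-type mean after normalization, but wild-type column 12 lay among the knockouts. The normalized level was 7.20 ± 0.26 in knockouts, against 6.75 ± 0.30 in wild types (mean ± SD of 6 arrays). The log2 difference of 0.45 (SE 0.17) had an adjusted p of 0.415 by limma. The 5p arm of the same hairpin had a log2 difference of -0.05 (SE 0.26). The difference between the arms was not tested.

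mmu-miR-539 had the largest negative difference among members. Its intensities were 48, 48, 8, -8, -8 and -24 in knockouts, against 28, 32, 64, 36, -12 and 24 in wild types. With 3 knockouts and 1 wild type below 0, the difference sets values near the background against each other. The normalized level was 5.76 ± 0.58 in knockouts, against 6.32 ± 0.43 in wild types (mean ± SD of 6 arrays). The log2 difference of -0.56 (SE 0.26) had an adjusted p of 0.529 by limma. It was -0.37 without knockout 6, and it depended on the offset added before the log, with -1.92 at an offset of 1 and -0.17 at an offset of 200.

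The next smallest p-values belonged to members of all parts of the cluster except Rian. miR-433, opposite Rtl1, had intensities of 64 to 284 (median 132) in knockouts and 52 to 184 (median 88) in wild types and differed by 0.31 (SE 0.18). In the same group miR-434-5p differed by 0.22 (SE 0.17), while the other arm, miR-434-3p, differed by -0.19 (SE 0.24). The neuronal miR-134 was at 28 to 124 (median 52) in knockouts and 16 to 88 (median 38) in wild types and differed by 0.23 (SE 0.19). miR-380-5p and miR-654-5p, with differences of 0.21 each and standard errors of 0.16 and 0.18, had all 6 knockouts above the wild-type mean. One array moved 3 of these differences by over 1.5 times: miR-654-5p was at 0.07 without wild-type column 10 and 0.32 without wild-type column 12, miR-134 at 0.10 without wild-type column 12, and miR-434-5p at 0.14 without knockout 1. miR-410, at the Dio3 end, had intensities of 124, 200, 20, 32, 16 and 20 in knockouts, against 60, 88, 88, 88, 28 and 96 in wild types. Knockouts 1 and 2 were far above the other 4 knockouts, and the log2 difference of -0.29 had a standard error of 0.23. None of these passed, with adjusted p-values of 0.638 to 0.777 (limma).

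The ranges of the differences overlapped between the positional groups. In the group opposite Rtl1, 3 of 5 IDs had a positive difference, with a range of -0.20 to 0.31. miR-370 had intensities of 136, 152, 64, 96, 108 and 80 in knockouts, against 120, 64, 128, 44, 112 and 160 in wild types, and a log2 difference of -0.001 (SE 0.17). From miR-379 to miR-410, 19 of 33 IDs had a positive difference, with a median of 0.05 and a range of -0.56 to 0.45.

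**Figure D3:**
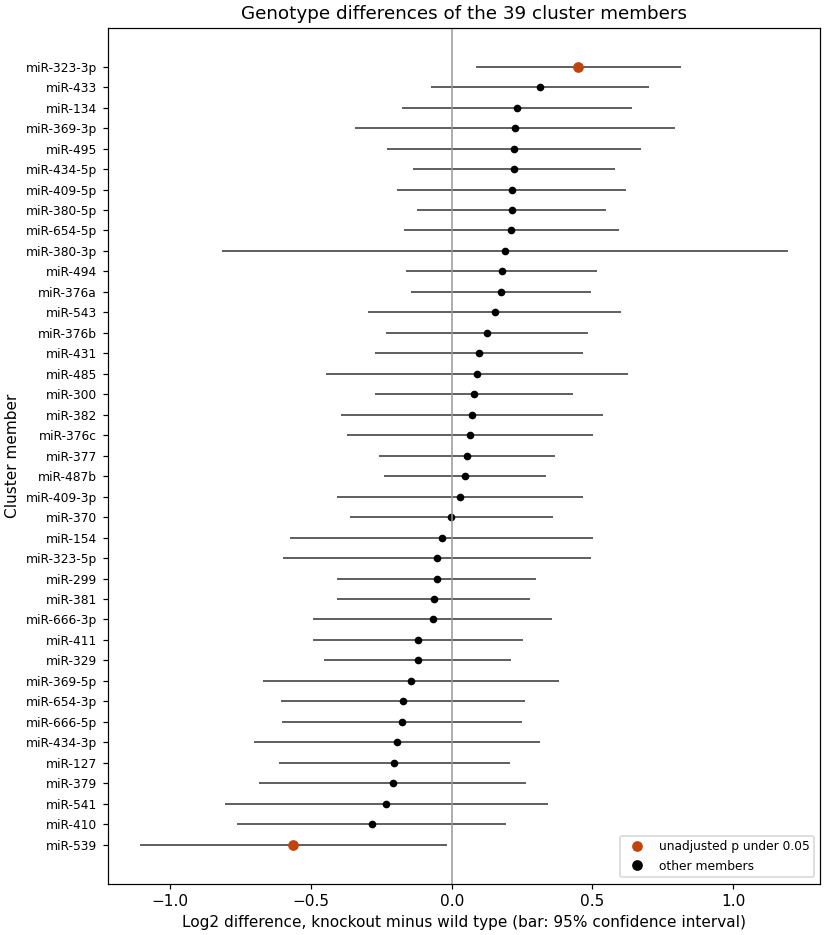
Log2 differences, knockout minus wild type, of the 39 members (points) with 95% confidence intervals (bars), sorted from the largest to the smallest. The intervals of miR-323-3p and miR-539 leave out 0 before adjustment, and those of the other 37 members include it.

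Other miRNAs of the region, listed beside the members, were examined too. Of 25 further IDs, such as miR-136 opposite Rtl1 and miR-770 in Meg3, limma called 0, and 0 had an unadjusted p under 0.05, with 10 differences above and 15 below 0 (median -0.03). miR-667 had the highest rank of these, 82.7%, at a level of 8.73 ± 0.34 in knockouts, against 8.79 ± 0.27 in wild types (mean ± SD of 6 arrays). The 12 passenger strands of member hairpins had a median rank of 16.9%, and 0 of them was called or had an unadjusted p under 0.05. The brightest of these was miR-127* at 62.8%, with levels of 7.69 ± 0.16 in knockouts, against 7.52 ± 0.19 in wild types, while miR-127, the other strand, was at 6.98 ± 0.12 in knockouts, against 7.18 ± 0.47 in wild types.

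The sexes were compared with the submitters' normalized values, which have a column for each labelled mouse and so a sex for the wild types too. Wild types are numbered 1 to 6 in these values, and their levels are log2(deposited value + 50). Members did not pass for sex: limma called 0 of 39, against 1 of 710 miRNAs (0.141%), which was miR-122, a miRNA of hepatocytes. Over 16 alternatives the count of all miRNAs called was 0 in 10, among them leaving out knockout 1, knockout 2 or any 1 of the 6 wild types, and it was 5 without knockout 3. An unadjusted p under 0.05 was found for 5 of 39 members (12.8%), against 12.3% of all miRNAs. The difference, female minus male, was above 0 for 26 of 39 members (66.7%), against 50.6% of all miRNAs, with a median of 0.06.

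miR-654-3p had the smallest p for sex and also for the interaction of genotype and sex. Its levels were 6.73, 6.42 and 6.67 in knockout females and 5.73, 5.72 and 5.67 in knockout males, and 6.49, 6.33 and 6.42 in wild-type females and 6.07, 6.11 and 6.59 in wild-type males. The 3 knockout males lay at or next to 5.67, the floor of the submitters' values, and wild-type male 3 lay above all wild-type females. The log2 difference, female minus male, was 0.53 (SE 0.16) and an adjusted p of 0.224 (limma). In the intensity table the 6 knockouts had 52, 24 and 44 in females and 16, 40 and -8 in males, close to the background, and the other arm, miR-654-5p, had an unadjusted limma p of 0.687 for sex.

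miR-539 was lower in females by value, with 5.67 in each of the 3 knockout females, 6.46, 5.95 and 6.07 in knockout males, 6.61, 5.67 and 6.04 in wild-type females and 6.53, 6.38 and 6.66 in wild-type males. A level of 5.67 is the floor of the submitters' values, so the knockout females have no order among themselves. Its difference was -0.45 (SE 0.16) (limma's adjusted p 0.290). miR-323-5p differed by 0.58 and miR-409-5p by 0.41, with standard errors of 0.22 and 0.16 and an adjusted p of 0.310 each. For miR-323-5p the sexes overlapped in knockouts, at 6.87, 7.33 and 6.73 in females and 6.27, 6.76 and 7.09 in males. Wild types were at 7.39, 7.32 and 7.31 in females and 7.15, 5.84 and 6.35 in males. How often 3 females and 3 males lie apart over all miRNAs was not counted.

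Whether the effect of genotype differed between the sexes was tested as an interaction, and limma called 0 of 39 members and 0 of 710 miRNAs (0%). An unadjusted p under 0.05 was found for 4 of 39 members (10.3%), against 5.92% of all miRNAs. For miR-654-3p the difference between knockouts and wild types was 0.20 in females and -0.55 in males, an interaction of 0.74 (SE 0.26). For miR-434-3p it was 0.33 and -0.64, for miR-379 0.25 and -0.66, and for miR-666-3p -0.43 and 0.30, each in females and males in that order. Knockout male 1 was at the floor of 5.67 for miR-434-3p, and knockout male 3 for miR-379. The interaction of miR-434-3p was 0.97, and 0.81 without knockout 1. That of miR-379 was 0.9, and 0.62 without knockout 3. The smallest adjusted p for the interaction was 0.679 (limma).

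**Figure D4:**
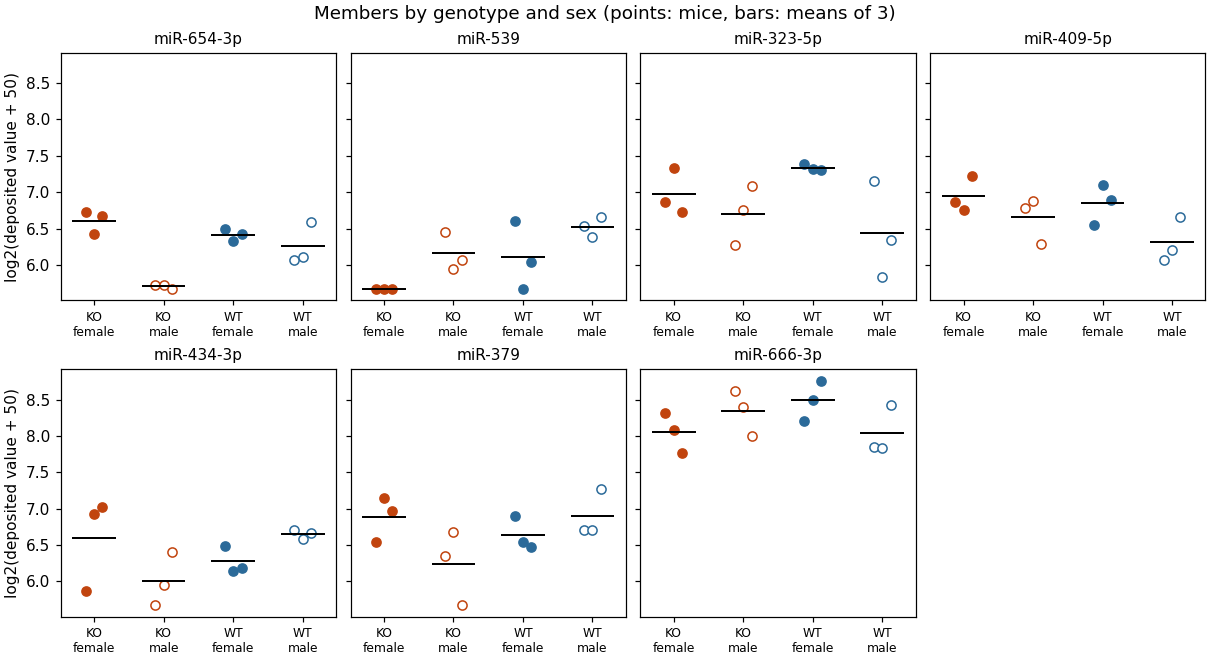
Levels, log2(deposited value + 50), of the 7 members with the smallest p for sex or for the interaction, in knockout females, knockout males, wild-type females and wild-type males (points: mice; bars: means of 3). Knockout males lie at 5.67 to 5.73 for miR-654-3p, and the 3 knockout females share the floor of 5.67 for miR-539.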

How the data were processed

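Total RNA from blood pellets was labelled with biotin by primer extension on the array, per the labels' protocols. The authors deposited linear intensity values for 710 miRNAs in 2 tables. The first is not normalized between arrays and holds values below 0 (3.31%), which look background-subtracted. The second holds quantile-normalized intensity values with a floor of 1, as judged from the values. The scanner, the background method and the miRBase release are unknown from the sources used. Knockout columns of the first table carry the labels' numbers. Wild-type columns 7 to 12 match no label and were used by genotype only. Among members, columns 7 and 8 hold the value order of wild types 1 and 2 of the second table, both males. For example, miR-485 and miR-495 were at -20 and -16 in column 7 and at the floor of 1 in wild type 1.

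The first table was quantile-normalized, transformed to log2(value + 50) and tested for genotype with limma 3.58.1 in R 4.3.3 (lmFit, eBayes, two-sided), adjusted by Benjamini-Hochberg over all 710 miRNAs at 0.05. Sex and its interaction with genotype were tested in the second table. The genotype fit was tested on simulated data with known differences. The simulated levels were drawn as independent normal noise around each miRNA's mean level, with limma's estimate of its spread and without a floor. Arm correlations used 100000 permutations. No label says what the replicate numbers shared by the genotypes mark. Members, lists and the columns' split at 8 were chosen with earlier results of these data known. Named members are the 8 with the highest mean intensity, the 8 with the smallest p for genotype, the 4 with the smallest p for sex and for the interaction, members that share a seed, and those with an array that stood apart. miR-370, miR-127, miR-541, miR-667 and miR-127* were named after their values were seen. Alternatives were other normalizations, offsets, filters, variance models, a rank test, covariates and leaving out each array. matplotlib 3.10.9 (Python 3.11.15) drew the figures, and sequences are from RefSeq (GRCm38.p6).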

Additional observations from a re-analysis of the deposited data

Results flagged for a closer look

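Within each genotype, an array was singled out when its gap to the nearest of the others was too large a part of the group's range by Dixon's 95% criterion for 6 samples. Among 78 groups of 6 arrays, 4 (5.13%) held such an array, where chance gives about 1 in 20. In wild-type column 7, miR-485 was at a level of 5.33 with the other wild types at 6.76 to 7.08, a difference of -1.61 from their mean. In the same column miR-495 was at 5.42 with the others at 6.32 to 6.76, a difference of -1.17. In wild-type column 12, miR-380-3p was at 3.74 with the others at 5.80 to 6.55, a difference of -2.40. In knockout 4, miR-329 was at 6.95 with the other knockouts at 7.29 to 7.46, a difference of -0.41. For the 3 wild-type values the deposited intensities were -20, -16 and -44, all below 0.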

How the results depend on the processing

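Under all alternatives run, limma or the rank test called 0 members for genotype, sex and the interaction. These include leaving out each array in turn, which for the interaction was added after the data were seen and left 1 to 6 members with an unadjusted p under 0.05, against 4 in the full fit. Among members, 0 to 4 had an unadjusted p under 0.05 for genotype, with 4 when columns 1 to 8 against 9 to 12 entered as a covariate, 0 without normalization and 0 among the 10 members left by a filter at the median level. Over all miRNAs this count was 64, against 19 without normalization and 39 after 75th-percentile scaling. With the labels' replicate number as a block, 0 members were called and 2 had an unadjusted p under 0.05. Same-numbered mice correlated at -0.12 to 0.18, not all above 0.1, so the numbers were not taken as pairs. The mean difference over the members was 0.02 and ran from 0 to 0.04 without single arrays. It was 0.13 with the column covariate, which compares the knockouts with wild-type columns 7 and 8 alone. By value order these columns go with wild types 1 and 2, both males, while the knockouts are of both sexes. The cause was not tested. Differences near 0 changed sign. miR-666-3p, at -0.07, was at 0.01 without normalization, 0.38 with the column covariate, 0.02 without knockout 6 and 0.04 without wild-type column 12. miR-666-5p and miR-381, at -0.18 and -0.06, were at 0.27 and 0.28 with the column covariate, and miR-381 was at 0.02 without wild-type column 11. miR-377 was at -0.01 without knockout 2 and miR-431 at 0 without wild-type column 7. For genotype, the 8 members with the smallest p had larger differences with an offset of 1 and smaller ones with an offset of 200, as 0.76 and 0.20 for miR-323-3p and 0.60 and 0.08 for miR-134. With the column covariate miR-433 was at 0.17, miR-434-5p at 0.09, and miR-134 and miR-380-5p at 0.44 each. Without single arrays the difference ran from -0.16 to 0.04 for miR-666-3p, 0 to 0.19 for miR-431, -0.01 to 0.12 for miR-377 and -0.14 to 0.02 for miR-381. Signal close to the background limits what can be seen for most members.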
